A study of Mus musculus with 7 samples.

Results

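Cycling thymocytes of Lat-KO mice were described in the library of CD25+ CD44- double-negative (DN3) cells with an intermediate surface level of the γδ T cell receptor (TCR), called Lat-KO DN3 γδint. A barcode, which stands for 1 cell, entered when it had at least 1000 detected genes, at most 10% of its unique molecular identifiers (UMIs, tags of single transcript molecules) on mitochondrial genes and at most 1 UMI of the B cell genes Cd79a, Cd79b and Ms4a1 together. It was called cycling with 4 or more UMIs of Mki67, Top2a, Rrm2 and Tyms summed, and low with 0 or 1. Of 8275 barcodes in the library 4928 were kept, of which 1117 were cycling, 3158 were low and 653 lay between with 2 or 3 UMIs. The whole series of 7 libraries held 90016 barcodes.

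The thymocytes came from C57BL/6 mice with the genotype Lat-/-TCRd-H2BEGFP, so that the thymocytes of both Lat-KO libraries lacked LAT, the adaptor that links a T cell receptor to its signalling pathways, and carried a reporter allele of Trdc, the gene for the TCR δ constant region. The other Lat-KO library, DN3 γδ-, came from cells of the same genotype without surface γδ TCR. The 5 other libraries were WT C57BL/6 thymocytes of 6 to 8 weeks, sorted as DN3a, DN3b γδ-, DN3b γδ+, DN4 γδ- and DN4 γδ+. The study used CD71, the product of Tfrc, to tell WT DN3b γδ- from DN3a, and describes WT DN4 γδ- as CD71+. Its text names no such gate for the Lat-KO libraries. The age of the Lat-KO mice is not in the sources used here, and their thymi were pooled. Each library received 500 splenic B cells and there was 1 library per group, so nothing was tested and every 95% interval below covers counting error only.

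DN3 thymocytes rearrange their TCR genes while they rest. A cell that assembles a TCR β chain with pre-Tα, or a γδ TCR, and receives its signal normally leaves the resting state, divides several times and shuts down the recombination and Notch-dependent genes typical of DN3a. LAT is part of that signal. In the cell cycle, E2F factors switch on the genes of DNA replication before and during S phase, and a later wave of genes for spindle, kinetochore and mitotic kinases follows in G2 and M phase.

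The 4 genes that chose the members are given as a description. Among the 1117 cycling barcodes the median sum of the 4 genes was 26 UMIs and the highest 102. A Mki67 UMI was present in 848 of them, a Top2a UMI in 1016, a Rrm2 UMI in 952 and a Tyms UMI in 1071. Mki67 codes for a protein that coats mitotic chromosomes, Top2a for a topoisomerase, Rrm2 for a subunit of ribonucleotide reductase and Tyms for thymidylate synthase. Just inside the limit lay 114 barcodes with 4 UMIs and 60 with 5, and just outside it 190 with 3 and 463 with 2. Most members were far from the limit, since 689 had 16 or more UMIs and 379 had 40 or more.

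**Figure D1:**
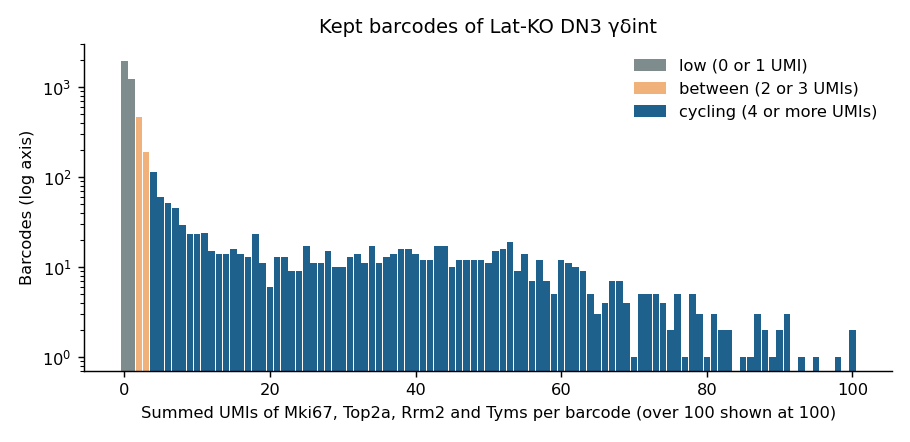
Number of kept barcodes of Lat-KO DN3 γδint (vertical axis, log scale) by the summed UMIs of Mki67, Top2a, Rrm2 and Tyms per barcode (horizontal axis), coloured by group. Barcodes with 0 UMIs number 1926, and from 16 UMIs on the members form a broad, low shoulder of 689 barcodes.

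Cycling barcodes were 22.7% (21.5 to 23.9, exact Clopper-Pearson) of the kept barcodes. They were also the deeper ones, with a median of 13139 UMIs and 3863 genes against 5248.5 UMIs and 2320 genes in low barcodes, and a rule on absolute UMIs favours deep barcodes. After each barcode had been thinned to 4000 UMIs, which left out 15 cycling and 400 low barcodes, 783 of 4476 or 17.5% (16.4 to 18.6) met the rule. Among B-like barcodes at the same depth, which mark the background, 1 of 30 met it, too few to place this background closely. The background differed between libraries. It was 0 of 47 in WT DN3a and 0 of 63 in the other Lat-KO library. In WT DN3b it was 13 of 69 for γδ- and 12 of 73 for γδ+ cells, and in WT DN4 6 of 93 and 1 of 65. Without thinning the same rule gave 5.75% in the other Lat-KO library and 3.80% in DN3a of WT mice. Among the later WT stages it gave 16.6% for γδ+ cells of DN4, 83.5% for γδ+ cells of DN3b, and 89.1% and 90.3% for the γδ- cells of DN4 and DN3b. At 4000 UMIs the shares were 3.11% and 1.16%, then 12.1%, 59.2%, 60.9% and 65.4%, so that Lat-KO DN3 γδint lay above WT DN3a and the other Lat-KO library and below the WT DN3b libraries at both depths. WT DN3a and the γδ- cells of WT DN3b and DN4 had been sorted on CD71. The part of that gate in their shares cannot be told apart.

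The limit on B cell genes removed 1129 barcodes that had passed the other limits. Of these 949 were over it through Cd79b alone and 991 had more T than B cell marker UMIs, 205 of which had 4 or more UMIs of the 4 cycling genes. Barcode sequences that recur in another library made up 199 of the 8275, among them 22 members. The median mitochondrial share was 4.20% in cycling and 5.30% in low barcodes, and that of ribosomal protein UMIs 17.03% and 18.4%.

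The members carried the markers of thymocytes. At least 10 UMIs of 10 T cell marker genes were present in 1116 of the 1117, and Cd3g, a TCR signalling subunit, stood at 3373 UMIs per 1000000 UMIs of the group (CPM) in cycling and 4090.2 CPM in low barcodes. The B cell marker Ebf1 was under 1 CPM in both groups, and so were Cd79a and Ms4a1, whose level the entry limit fixed. Cd79b, also under that limit, had a UMI in 10.8% of cycling and 25.8% of low barcodes thinned to 4000 UMIs. The summed level of the 10 B cell markers was 831 CPM in cycling, 1271 CPM in low and 43852 CPM in B-like barcodes, and most of the thymocyte value was Ly6d, at 775 and 1179.9 CPM. Of 5 NK markers Klrb1c, Klrd1 and Ncr1 had 0 UMIs in members, but the sum of the list was 805 CPM in cycling and 589 CPM in low barcodes, from Gzma and Nkg7, which had a UMI in 71.3% and 33.8% of thinned members. The same shares were 61.3% and 30.6% in low barcodes, and 16.7% and 10% in 30 B-like barcodes. Of 5 plasmacytoid markers Siglech had 0 UMIs, and the sum was 400 CPM in cycling and 634 CPM in low barcodes, mostly Bst2. Of 7 myeloid markers Itgam had 0 UMIs, and the sum was 120 and 164 CPM, mostly Cst3. The summed DN1-DN2 progenitor markers were 22.1 CPM in cycling and 16.8 CPM in low barcodes. Their part in the differences below was not tested. Lat itself was at 0.396 CPM in cycling and 1.15 CPM in low barcodes, from 6 and 20 UMIs, whereas cycling barcodes of the 5 WT libraries held between 344 and 465 CPM.

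Genes were compared on the log2 ratio of CPM, cycling over low barcodes, among the 6792 genes with at least 20 CPM in 1 of the groups. At least 2-fold higher in cycling barcodes were 411 genes (6.05%) and at least 2-fold lower 406 (5.98%), with a median over all of -0.12. Scaling by trimmed mean of M values (TMM) raises every ratio by 0.18 and turns the split to 541 higher and 239 lower. The members were picked on 4 genes of the cell cycle, so the higher genes of the cycle are read as a description of the cells that were picked. Cycling and low barcodes differed in depth, and a comparison restricted to 395 cycling and 888 low barcodes with 6000 to 12000 UMIs gave 309 higher and 106 lower genes. Values from that restricted comparison are given below as the depth window, mainly where they change a direction or a 2-fold difference of a gene with at least 20 CPM, and the part of depth in the differences was not tested. Within the window cycling barcodes were still deeper, with a median of 9940 UMIs against 6931.5.

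**Figure D2:**
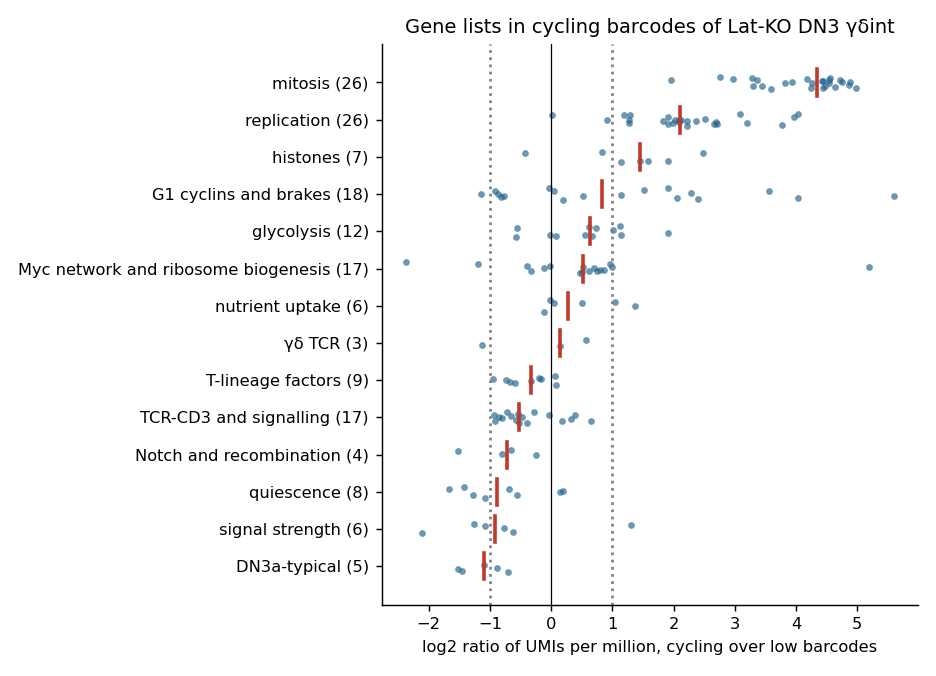
The log2 ratio of CPM, cycling over low barcodes of Lat-KO DN3 γδint (horizontal axis), for each gene with at least 20 CPM in 1 group, by gene list (number of genes in parentheses). Red bars mark list medians and dotted lines 2-fold differences. The mitosis median is 4.34 and the DN3a-typical median -1.10.

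Mitosis genes gave the highest median of the lists outside the 4 genes of the rule. All 26 genes of the list were at least 2-fold higher in cycling barcodes, with a median log2 ratio of 4.34 against -0.12 over all genes. Cdk1, the kinase that drives entry into mitosis, stood at 326 CPM in cycling and 14.1 CPM in low barcodes, a log2 ratio of 4.53 (4.34 to 4.72). Its partner Ccnb1 was at 196 and 10.3 CPM, and Ccna2, the cyclin of S and G2 phase, at 179 and 5.71 CPM. Plk1, which starts spindle assembly, was at 86.2 and 3.46 CPM. The lowest ratio was that of Kif23, a motor of cytokinesis, at 1.95 (1.81 to 2.10), which was 0.87 in the depth window.

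Among the 26 replication genes 24 were at least 2-fold higher, with a median of 2.11. The licensing and firing factors Cdc6 and Cdc45 had log2 ratios of 4.03 (3.68 to 4.41) and 3.77 (3.50 to 4.04). Those of the helicase subunits were smaller, from 0.91 for Mcm2 to 2.22 for Mcm5, and low barcodes held 108 CPM of Mcm2 and 210 CPM of Mcm6. Uhrf1, which recruits the maintenance DNA methyltransferase to replicating DNA, did not separate the groups: it stood at 301 CPM in cycling and 297 CPM in low barcodes, a log2 ratio of 0.02 (-0.04 to 0.08). The same ratio was 0.63 in WT DN3a, 0.89 in WT DN3b γδ+ and 0.37 in the other Lat-KO library, and 0.50 in the depth window of Lat-KO DN3 γδint. Low barcodes of the WT DN3a library held 195 CPM of Uhrf1.

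Histone genes are transcribed in S phase and mostly lack a poly(A) tail, which the 3′ chemistry needs, and near-identical copies share reads. Of 12 histone genes 7 reached 20 CPM, and 5 of these were at least 2-fold higher, Hist1h1b most among them at 244 against 43.9 CPM. Hist1h1d, also a linker histone, was at 24.9 against 33.5 CPM.

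Cyclins, their kinases and their inhibitors did not move as a block. Of the 18 genes of this list with at least 20 CPM, 9 were at least 2-fold higher and 1 at least 2-fold lower, with a median of 0.83. Ccne1 and Ccne2, the cyclins that open S phase, had log2 ratios of 4.03 and 3.56. E2f8, an E2F repressor that closes the G1/S programme (ENSMUSG00000046179, GRCm38 chr7:48866429-48881596, minus strand), had 550 UMIs in cycling and 13 in low barcodes, a log2 ratio of 5.60 (4.81 to 6.52). E2f1 and E2f2 were higher by 2.40 and 2.29. Ccnd2, a D-type cyclin of G1, was at 194 CPM in cycling against 429 CPM in low barcodes, a log2 ratio of -1.15 (-1.21 to -1.08) and -0.74 in the depth window, and its kinase Cdk6 at 692 against 1221 CPM (-0.82), whereas Ccnd3 stood at 162 and 156 CPM. Among the inhibitors Cdkn2c (p18) was at 69.1 against 16.6 CPM, while Cdkn1a (p21) and Cdkn1b (p27) were at 52.9 against 99.7 and at 72.9 against 124 CPM.

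The 15 genes with the highest ratios outside the 4 of the rule ran from Neil3, a DNA glycosylase, at 5.81 (64.8 against 1.15 CPM) to Nek2, a centrosome kinase, at 4.87. Between them came E2f8, the cohesin acetyltransferase Esco2, the kinases Pbk and Melk, the Myc-network member Mxd3, Ankle1, Depdc1a, the spindle proteins Ckap2l and Aspm, the PCNA partner Pclaf, the kinetochore subunit Nuf2, Ccna2 and the chromosomal passenger kinase Aurkb.

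Promoters of 2 mitosis genes, of 2 replication genes and of E2f8, which is in neither list, are printed because the classes had different ratios and textbook knowledge ties them to different sequence elements. E2F sites, here TTTCGCGC and TTTGGCGC, are typical of replication genes, and the pair of CCAAT box and cell cycle homology element, here TTTGAA, of mitosis genes. The RefSeq table of GRCm38.p6 promoters, each 300 bases from 250 before to 50 after a start, held 22 promoters for 21 of the 26 mitosis genes and 26 promoters for 21 of the 26 replication genes. Below are the 150 bases before the start of 5 genes, 5′ to 3′ on the gene's strand, with every copy of the 4 motifs or of their reverse complements in capitals. Neighbouring or overlapping motifs can run together.
Cdk1, chr10:69352913-69353062, minus strand: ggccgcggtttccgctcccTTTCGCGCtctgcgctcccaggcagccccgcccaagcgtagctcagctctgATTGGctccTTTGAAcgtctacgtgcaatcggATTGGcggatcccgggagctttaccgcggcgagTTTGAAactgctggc
Cdc20, chr4:118437344-118437493, minus strand: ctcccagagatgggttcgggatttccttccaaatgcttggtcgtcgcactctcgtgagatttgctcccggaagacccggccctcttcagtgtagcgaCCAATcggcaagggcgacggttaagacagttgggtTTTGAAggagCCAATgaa
E2f8, chr7:48881597-48881746, minus strand: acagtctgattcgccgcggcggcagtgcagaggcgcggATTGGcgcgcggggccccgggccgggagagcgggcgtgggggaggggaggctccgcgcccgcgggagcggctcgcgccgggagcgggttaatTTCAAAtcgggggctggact
Mcm5, chr8:75109359-75109508, plus strand: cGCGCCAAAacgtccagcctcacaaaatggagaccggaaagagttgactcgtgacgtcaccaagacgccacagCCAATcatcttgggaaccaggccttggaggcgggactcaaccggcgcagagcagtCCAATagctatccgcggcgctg
Mcm6, chr1:128359706-128359855, minus strand: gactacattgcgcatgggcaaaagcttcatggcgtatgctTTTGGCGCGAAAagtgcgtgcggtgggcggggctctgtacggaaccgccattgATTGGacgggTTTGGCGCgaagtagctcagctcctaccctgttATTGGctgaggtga

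Cdk1 held 2 CCAAT boxes, 2 TTTGAA elements and 1 TTTCGCGC in these 150 bases, Cdc20 held 2 CCAAT boxes and 1 TTTGAA, and E2f8 1 of each, in either orientation. Mcm6 held 2 copies of TTTGGCGC, one of which overlapped TTTCGCGC on the other strand, and Mcm5 held 1 at the edge of the window. Mcm5 and Mcm6 also held 2 CCAAT boxes each, without TTTGAA. Over whole promoters, with both strands read, CCAAT together with TTTGAA was in 16 of 22 mitosis promoters (72.7%), in 2 of 26 replication promoters (7.69%) and in 6.95% of all 32851 promoters. Either E2F form was in 8 of 26 replication promoters (30.8%), in 1 of 22 mitosis promoters (4.55%) and in 0.813% of all. Of the 15 highest genes 11 had a promoter in the table, and 4 of the 11 held the CCAAT and TTTGAA pair. These are counts of letters in a window and say nothing of binding.

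Of 17 genes of the Myc network and ribosome biogenesis 11 were above 0 and 6 below, with 1 at least 2-fold higher, 2 at least 2-fold lower and a median of 0.51. The ribosome biogenesis factors were between 0.47 (Fbl) and 0.99 (Nolc1) on the log2 scale, with the nucleolar protein Ncl at 1806 CPM in cycling and 991 CPM in low barcodes. Myc was not higher, at 60.5 against 79.0 CPM (-0.39, -0.51 to -0.26). Its antagonists of the MXD family lay on opposite sides: Mxd3 stood at 96.6 against 2.65 CPM and Mxd4 at 69.2 against 357 CPM, log2 ratios of 5.19 (4.76 to 5.64) and -2.37 (-2.46 to -2.27), while Mxd1 was lower by 1.19. In the depth window Mxd3, Mxd4 and Mxd1 were at 4.37, -1.81 and -0.93.

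Of 8 nutrient transporters and their partners 6 reached 20 CPM, and the median of these was 0.27. Tfrc, the transferrin receptor that takes up iron, had 749 UMIs in cycling and 332 in low barcodes, 49.4 and 19.2 CPM, a log2 ratio of 1.37 (1.18 to 1.56). Slc7a5, the light chain of the large neutral amino acid transporter, was at 33.2 against 16.04 CPM (1.05, 0.84 to 1.27), but its heavy chain Slc3a2, the surface marker CD98, was at 136 against 147 CPM (-0.12), a value that is above 0 with TMM scaling. The glutamine transporter Slc1a5 stood at 67.5 and 65.6 CPM. The glucose transporters Slc2a1 and Slc2a3 were under 10 CPM in both groups. Of 12 glycolytic genes 4 were at least 2-fold higher, which were Pfkp (1.91), Tpi1 (1.14), Pgam1 (1.12) and Ldha, which lay at the limit, with a list median of 0.64, whereas Hk1 and Aldoa were lower by 0.57 and 0.55. None of the nutrient or glycolysis genes with at least 20 CPM reached 2-fold in the depth window, with Tfrc at 0.93, Slc7a5 at 0.65, Pfkp at 0.90 and Tpi1 at 0.79.

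The genes typical of DN3a were all lower in cycling barcodes. Their median log2 ratio was -1.10, 3 of 5 were at least 2-fold lower, and their summed level was 1598 CPM in cycling against 3249 CPM in low barcodes. Rag1, the recombinase that cuts TCR loci (ENSMUSG00000061311, GRCm38 chr2:101638282-101649501, minus strand), was at 273 against 781 CPM (-1.51, -1.56 to -1.47). The receptor Notch3 was at 83.1 against 227 CPM and the Notch target Hes1 at 167 against 356 CPM. Ptcra, which codes for pre-Tα (ENSMUSG00000036858, chr17:46755663-46763712, minus strand), was at 611 against 1131 CPM, and Il2ra, which codes for the sorting marker CD25, at 464 against 754 CPM. The study named these genes among its longer list of top DN3a genes, chosen on these libraries, so their direction is no independent evidence. In the depth window the median was -0.50, with Rag1 at -1.28, Notch3 at -0.85, Hes1 at -0.50, Ptcra at -0.42 and Il2ra at -0.19.

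Lower did not mean absent. With barcodes thinned to 4000 UMIs a Ptcra UMI was found in 79.3% of cycling and 94.5% of low barcodes, and a Rag1 UMI in 52.2% and 86.8%, beside 12 and 7 of 30 B-like barcodes. Cycling barcodes of WT DN3b γδ+ held 5.61 CPM of Ptcra and 1.88 CPM of Rag1. Ptcra stood at 462 CPM in those of the other Lat-KO library and at 186 CPM in those of WT DN3a. Of the other recombination and Notch genes, Dtx1, a Notch target, was at 83.8 against 239 CPM (-1.51, and -0.68 in the depth window), Notch1 at 355 against 619 CPM, Rag2 at 63.2 against 98.9 CPM and Dntt, the polymerase that adds N nucleotides, at 2232 against 2632 CPM. Nrarp, a Notch target that feeds back on the pathway, was on the other side, at 13.0 against 5.48 CPM (1.25, 0.89 to 1.62), below the limit of 20 CPM, and at 0.85 in the depth window.

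Along the level of the 4 cycling genes the DN3a-typical sum dropped early and then stayed nearly level. It was 3289 CPM in barcodes with 0 UMIs of these genes, 3191 with 1, 2675 with 2 to 3, 1760.5 with 4 to 7, 1707 with 8 to 15, 1548 with 16 to 39 and 1533 with 40 or more. The quiescence genes followed a like course, from 1718 CPM with 0 UMIs to 732 CPM with 40 or more. The mitosis sum went the other way over the whole range, from 322 to 7500 CPM, while the replication sum reached 6893 CPM at 16 to 39 UMIs and was 6180 CPM above that. The bins differ in depth and were cut on the genes of the rule, so these values are a description.

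**Figure D3:**
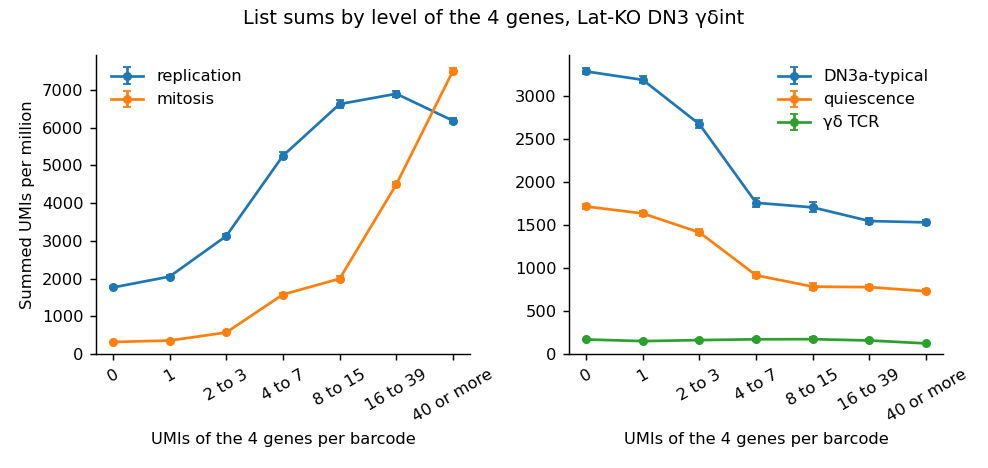
Summed CPM of gene lists (vertical axes, linear from 0; bars, exact Poisson 95% intervals) in kept barcodes of Lat-KO DN3 γδint binned by the UMIs of the 4 cycling genes (horizontal axes). On the left the mitosis sum climbs throughout, and the replication sum climbs to 6893 CPM at 16 to 39 UMIs and is 6180 CPM above that. On the right the DN3a-typical sum goes from 3289 to 1760.5 CPM by the bin of 4 to 7 UMIs and the γδ TCR sum stays between 125 and 174 CPM.

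The TCR chains did not move together. Trbc1 and Trbc2, the near-identical constant regions of the β chain on chromosome 6 between which reads may be split, were higher in cycling barcodes, at 1265 against 808 CPM and 1989 against 1587 CPM, a log2 ratio of 0.44 (0.42 to 0.46) for their sum. The 4 γ constant genes, only some of them near-identical, were lower, at 1382 against 2052 CPM for their sum (-0.57, -0.59 to -0.55). Trdc with its reporter feature was at 63.4 against 92.3 CPM (-0.54, -0.66 to -0.43), with a UMI in 23.1% of cycling and 28.5% of low barcodes thinned to 4000 UMIs. Among 30 B-like barcodes at that depth the share was 10% (2.11 to 26.5). The CPM level of Trdc with its reporter was above the 49.4 and 54.8 CPM of the other Lat-KO library, sorted without surface γδ TCR, and below the 350 and 308 CPM of WT DN3a and the 984 and 1409 CPM of WT DN3b γδ+. With ribosomal protein UMIs left out of the totals, chosen after seeing the data, it was 76.6 and 114 CPM against 67.3 and 75.7 CPM in the other Lat-KO library. That library had a UMI in 18.4% of cycling, 18.2% of low and 4.76% of B-like barcodes thinned to 4000 UMIs. Only the Lat-KO libraries carry the edited Trdc allele. Between them and WT, the allele and the expression of Trdc cannot be told apart. UMIs on γ variable segments were at 8.25 against 19.2 CPM (-1.22, -1.52 to -0.91), while β variable segments stood at 3.17 and 4.04 CPM with an interval that spans 0 (-0.91 to 0.20). The δ and α variable segments were lower too, at 1.45 against 4.21 CPM (-1.536, -2.295 to -0.831) and 1.65 against 3.23 CPM (-0.969, -1.711 to -0.265). The γ variable ratio was 0.20 in WT DN3b γδ- and between -1.75 and -0.28 in the other libraries. Segments have no value in the depth window. Trac, the α constant region, had 3 and 15 UMIs. A 3′ library counts unrearranged and out-of-frame transcripts too. In the depth window Trbc1 and Trbc2 were at 0.23 and 0.20, Tcrg-C1 at -0.22, Trdc at -0.12 and its reporter feature at -0.01.

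None of 17 genes for CD3 chains, TCR chains and proximal signalling reached 2-fold, and their median was -0.52. Over all tested genes 6.05% were at least 2-fold higher and 5.98% lower, so few would be expected among 17. Cd3d and Lck, the kinase that first phosphorylates the receptor, were at -0.84 and -0.93, Cd3e at -0.66 and Cd3g at -0.28. Zap70, the kinase recruited next, was at 36.9 against 28.2 CPM (0.39, 0.21 to 0.57), and its relative Syk at 13.7 against 23.8 CPM (-0.80). In the depth window the median was -0.19, Cd3g stood at 0.03 and Zap70 at -0.10, each on the other side of 0.

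Genes that report the strength of TCR signalling gave a median of -0.92 over the 6 of 15 that reached 20 CPM. Egr1, an immediate-early factor induced by TCR signals, had 93 UMIs in cycling and 456 in low barcodes, 6.14 and 26.3 CPM (-2.10, -2.44 to -1.77), but in the depth window it was at -0.33. Cd69 and Dusp5 were at -1.25 and -1.07, and at -0.52 and -0.45 in the window. Id3, which is induced through Egr factors and holds back E proteins, was the exception at 66.1 against 26.9 CPM (1.30, 1.14 to 1.46) and 0.98 in the window. Egr2, Egr3 and Nr4a1 were under 2 CPM in both groups. The immediate-early genes Jun, Junb and Fosb, which also answer to tissue handling, were lower by 1.32, 1.46 and 1.16 in the same barcodes, and were at -0.57, -0.78 and -0.69 in the window. They were the 3 at least 2-fold lower of 7 stress genes with at least 20 CPM, of which 1 was above 0. The median of that list was -0.90, and -0.40 in the window, where Fos was at -0.23, Dnajb1 at 0.58 and Hspa1a at 0.175.

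The γδ TCR list was low in these cells. It holds the 14 genes that the study's text names from its γδ TCR-induced signature, not the whole signature. Only 3 of the 14 genes reached 20 CPM, with a median of 0.15: Blk at 0.56, Cd53 at 0.15 and Sesn3 at -1.13 (-0.94 in the depth window). Of these Blk and Cd53 are also genes of B cells, at 265 and 380 CPM in B-like barcodes against 20.4 and 22.5 CPM in members, and the whole list summed to 2739 CPM there. Ebf1 was at 541 CPM in B-like barcodes and at 0.264 CPM in members. The summed level of the 14 was 149 CPM in cycling against 163 CPM in low barcodes (-0.13, -0.21 to -0.05), a difference whose sign turns with TMM scaling. In cycling barcodes of WT DN3b γδ+ the same sum was 1292 CPM, in those of WT DN3a 247 CPM and in those of the other Lat-KO library 171 CPM. Below 20 CPM, Cpa3, a carboxypeptidase, was at 13.3 against 2.77 CPM (2.27, 1.81 to 2.75, and 3.81 in the depth window), Pdcd1, which codes for PD-1, at 12.9 against 4.38 CPM (1.55, 1.17 to 1.96, and 0.87 in the depth window), and Etv5, a factor of γδ T cells, at 4.89 against 1.62 CPM (1.60, 0.95 to 2.28). In the window Cpa3 reached 20 CPM, at 21.3 against 1.52 CPM, and Etv5 was at 7.27 against 1.82 CPM. Cycling barcodes of WT DN3b γδ+ held 86.8 CPM of Cpa3, 151 CPM of Pdcd1 and 71.8 CPM of Etv5. Sox13, an early γδ lineage factor, was at 8.32 against 11.9 CPM. The study chose the signature that these genes come from on these libraries.

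On the αβ side Cd8b1, which appears after the pre-TCR checkpoint, was at 2.31 CPM in cycling and 2.65 CPM in low barcodes, with an interval of the log2 ratio from -0.88 to 0.47, and cycling barcodes of WT DN4 γδ- held 97.6 CPM. Members with 40 or more UMIs of the 4 genes held 29 Cd8b1 UMIs (4.61 CPM), and the other member bins 4, 0 and 2. In the depth window Cd8b1 had 2 against 22 UMIs (-2.685), under 20 CPM in both groups. Cd4 and Cd8a were each under 2 CPM in both groups.

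Of 8 quiescence genes 6 were lower, with a median of -0.89, and 2 were above 0, among them Ccng2 at 0.14. The 4 at least 2-fold lower were the antiproliferative factors Btg1 (197 against 627 CPM, -1.67) and Btg2 (-1.28), Pik3ip1, a brake on PI3-kinase (-1.42), and Txnip, which limits glucose uptake (-1.08). None of the 8 was at least 2-fold lower in the depth window, where the median was -0.54, with Btg1 at -0.98, Btg2 at -0.74, Pik3ip1 at -0.62 and Txnip at -0.47. Il7r, the receptor for IL-7, was at 44.9 against 72.5 CPM. Among genes of survival and death Bbc3, which codes for the death inducer PUMA, was at 5.02 against 20.4 CPM (-2.03, -2.40 to -1.66), and Mcl1 and Bcl2 at -0.99 and -0.51, with a median of -0.42 over 8 genes. The window gave Bbc3 at -1.01, below 20 CPM in both groups there, and Mcl1 at -0.57. Of 9 p53 response genes 6 reached 20 CPM, 5 below 0 and 1 above, with a median of -0.76, and -0.21 in the window. Among them Trp53inp1, a p53 target, was at 59.0 against 198 CPM (-1.75), and at -1.20 in the window. There Aen and Phlda3 were at 0.475 and 0.997, and Cdkn1a, Mdm2 and Ccng1 at -0.32, -0.14 and -0.28. None of the 9 T-lineage factors of 12 that reached 20 CPM was 2-fold higher or lower, beside 6.05% and 5.98% of all tested genes. Tcf7 stood at 370 and 352 CPM, Gata3 at 85.6 and 96.3 CPM, Lef1 at 290 against 563 CPM and Bcl11b at 649 against 1028 CPM. Tcf7 and Gata3 were at 0.07 and -0.17 on the log2 scale and at -0.33 and 0.04 in the window. Under 20 CPM, Maf was at 1.25 against 3.81 CPM, from 19 and 66 UMIs.

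The 15 lowest genes ran from the noncoding transcript Gm12503 at -2.96 (6.87 against 53.6 CPM) to Adamts17, a secreted metalloprotease, at -2.09. They held Scn4b, a sodium channel subunit (10.9 against 79.1 CPM), the cytokine Il34, the BH3-only protein Bmf, Gm34004, Chrna9, the ubiquitin ligase Rnf182, the helix-loop-helix factor Atoh8, the tight-junction protein Cldn4, Mxd4, the imprinted noncoding RNA H19 (44.4 against 221 CPM), Calcoco1, the secreted protein Stc1 and Egr1. All but Egr1 were still at least 2-fold lower in the depth window, from -1.23 for Bmf to -2.37 for Chrna9, both under 20 CPM there.

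The members varied along the cycle. Among 1111 members with at least 10 UMIs of the replication and mitosis lists together, the mitosis list gave under 1/3 of these UMIs in 634 (57.1%, 54.1 to 60.0), between that and 2/3 in 245 (22.1%) and more in 232 (20.9%). These are ranges of a score and not types, and 106 and 73 barcodes lay within 0.05 of the lower and the upper cut. Ung, a uracil glycosylase, was at 357 CPM in replication-leaning against 6.61 CPM in mitosis-leaning members, and Cdc6 at 103 against 9.20 CPM. Ube2c, which serves the anaphase-promoting complex, was at 68.0 against 1837 CPM. Ung, Cdc6 and Ube2c were all in the score, which in part fixes their course. Ccne1, which was not in the score, was at 38.2 against 2.87 CPM, and E2f1 at 93.8 against 6.90 CPM.

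The summed DN3a-typical level differed little along the cycle, while single genes of it did not move together. The sum was 1604 CPM in replication-leaning, 1562 CPM in intermediate and 1614 CPM in mitosis-leaning members, all near 1598 CPM for the whole and below 3249 CPM in low barcodes. Within that list Rag1 was at 255, 238 and 353 CPM, highest in mitosis-leaning members, and Il2ra at 512, 435 and 388 CPM, highest in replication-leaning ones. In the same order Trbc1 stood at 1326, 1083 and 1327 CPM, Tfrc at 44.7, 58.7 and 50.6 CPM, and the γδ TCR sum at 159, 135 and 141 CPM. Uhrf1, which is 1 of the genes of the score, was at 393, 254 and 144 CPM, a course that the score in part fixes.

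**Figure D4:**
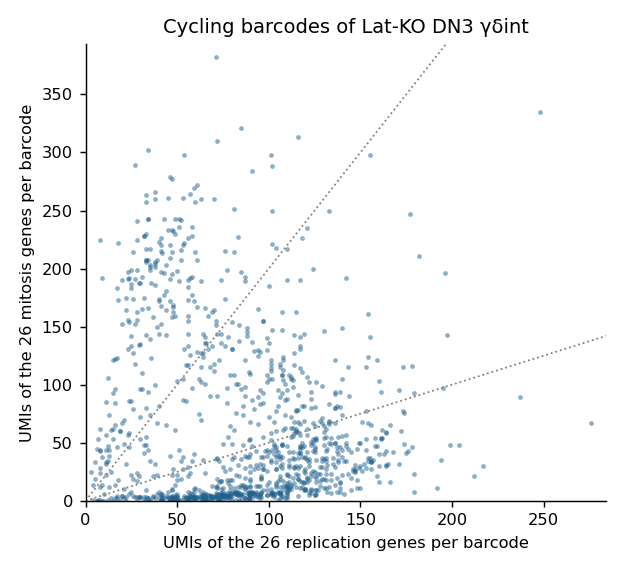
UMIs of the 26 mitosis genes (vertical axis) against UMIs of the 26 replication genes (horizontal axis) in each of the 1117 cycling barcodes of Lat-KO DN3 γδint. Dotted lines are the cuts at 1/3 and 2/3 mitosis share, and 634 of the 1111 scored barcodes lie under the lower line.

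The rule was applied in the same way in the other libraries, and the values stand side by side without a test. Lat-KO DN3 γδint stood apart in ribosomal protein UMIs, with a median share of 17.03% in cycling barcodes against 26.7% to 33.7% in the other 6 libraries, and of 19.4% against 29.3% to 34.7% in their B-like barcodes, which raises its other CPM values relative to theirs. The DN3a-typical median was -0.94 in the other Lat-KO library and -1.33 in WT DN3a, and for WT DN3b it was -1.36 in γδ- and -2.15 in γδ+ cells, over the genes of the list that reached 20 CPM there, so that cycling barcodes were lower in all of these as in Lat-KO DN3 γδint. The DN3a-typical sum in cycling barcodes was 1598 CPM in Lat-KO DN3 γδint, 1614 CPM in its γδ- counterpart and 1017 CPM in WT DN3a. It was 276 and 77.7 CPM in the γδ- and γδ+ cells of WT DN3b. In low barcodes the sum was 3249, 2803, 2329, 709 and 240 CPM in the same order, so the libraries differed there too. With ribosomal protein UMIs left out of the totals, a setting chosen after seeing the data, the sums in cycling barcodes were 1930.4, 2202, 1442, 409.7 and 108 CPM in the same order. Trbc1 had a ratio of 0.65 in Lat-KO DN3 γδint, 0.58 in its γδ- counterpart and 0.21 in WT DN3a, against -0.15 and -0.50 in the γδ- and γδ+ cells of WT DN3b. Tfrc had 1.37 and 1.02 in the Lat-KO libraries and 0.34 to 0.68 in the WT ones, where low barcodes already held 30.03 to 57.8 CPM against 19.2 CPM in Lat-KO DN3 γδint, and the 49.4 CPM of its cycling barcodes lay below the 73.4 CPM of WT DN3b γδ+ and above the 40.4 CPM of WT DN3a and the 36.2 CPM of the other Lat-KO library. Without ribosomal protein UMIs the same levels were 59.7, 102, 57.3 and 49.4 CPM. WT DN3a and the γδ- cells of WT DN3b and DN4 were sorted on CD71, the product of Tfrc. Their Tfrc levels cannot be told apart from that gate. Id3 had 1.30, against 1.37 in WT DN3a, 0.90 in the other Lat-KO library and -0.40 to 0.61 in the other WT libraries. Egr1 had -2.10 against -1.81 in the other Lat-KO library, -2.10 in WT DN4 γδ- and -0.60 to 0.43 in the other WT libraries. Gzma, a granzyme, was at 693 against 481 CPM in Lat-KO DN3 γδint (0.53), at 0.08 in its depth window, and at or below 0 in the other 6 libraries.

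**Figure D5:**
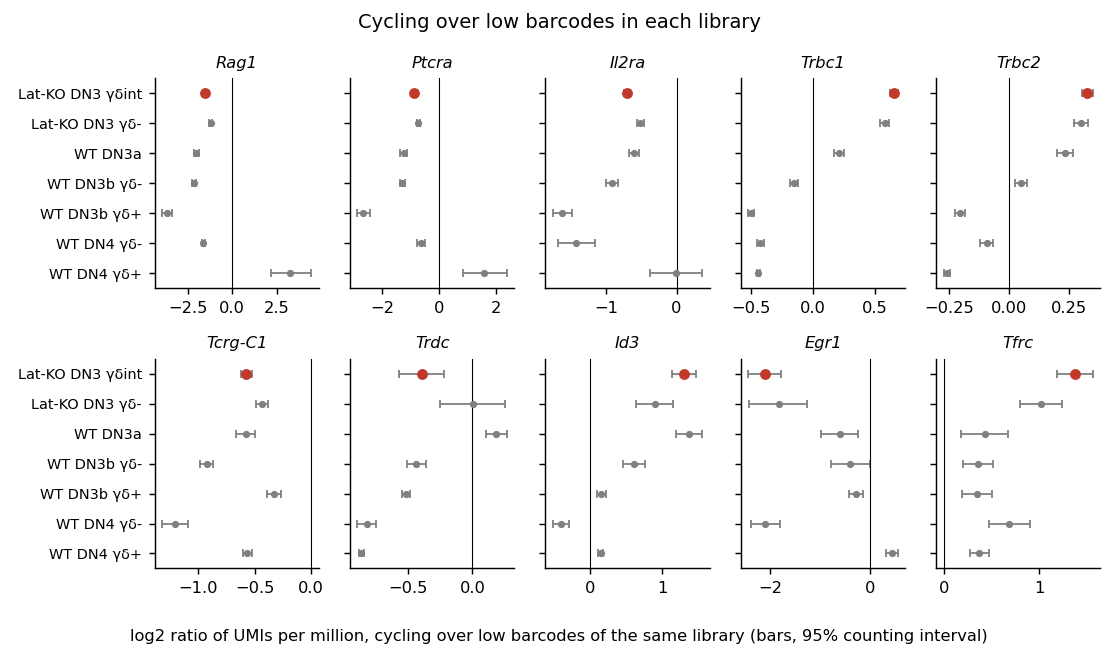
The log2 ratio of CPM, cycling over low barcodes of the same library (horizontal axes, scaled per gene; bars, exact conditional 95% intervals), of 10 genes in each of the 7 libraries (rows), with Lat-KO DN3 γδint in red. Rag1, Ptcra and Il2ra are below 0 in all DN3 libraries, and Trbc1 is at 0.65 in Lat-KO DN3 γδint and -0.50 in WT DN3b γδ+.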

How the data were processed

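Thymocytes of 7 sorted groups were profiled with 10x Genomics 3′ v3 chemistry, 1 library per group. The authors made the deposited UMI counts per gene and barcode with Cell Ranger on mm10, version 4.0.0 per the file headers and 5.0.1 per the labels, with a Trdc reporter added as a feature. No scaling or correction had been applied to them. Of 32286 features per file, 32158 had a position in GENCODE vM21. The 7 libraries held 90016 barcodes, and Lat-KO DN3 γδint held 49407750 UMIs.

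UMIs were summed per gene over cycling and over low barcodes and divided by the group's total (pandas 2.3.3 and numpy 2.4.6 under Python 3.11.15, with scipy 1.17.1 for intervals). Levels have exact Poisson, shares exact Clopper-Pearson and log2 ratios exact conditional binomial 95% intervals, all for counting error only. Where a group had no UMI, 3 counts stood in as the floor. A list median used the genes with at least 20 CPM in 1 group. Cells of 1 library are not replicates, so no test was run, and the Wilcoxon test over cells that the study used was not used here. The ratio was tested on simulated data.

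The members, gene lists, markers and limits were chosen with earlier results of these data known. The genes named by size are the 15 highest and 15 lowest ratios among genes with at least 20 CPM in the higher group and 50 UMIs over both, leaving out mitochondrial and ribosomal protein genes, the 4 genes of the rule and genes higher in B-like barcodes than in both groups. A barcode was B-like if its B cell markers summed to 10 UMIs or more and its T cell markers to less than 0.5 times that. Every gene of the lists could be named. Promoters were those of the RefSeq table on GRCm38.p6 with chromosome 18 left out, so some genes had no promoter. Doublets were scored with scrublet (scanpy 1.11.5), whose own threshold marked 1 of 6474 barcodes and so did not work. An alternative left out the 8% highest scores, which took 7.43% of cycling and 7.31% of low barcodes. TMM factors came from edgeR 4.0.16 (R 4.3.3). Figures were drawn with matplotlib 3.10.9.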

Additional observations from a re-analysis of the deposited data

Results flagged for a closer look

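One gene lay on opposite sides in 2 libraries under the same contrast. Of 184 genes of the lists that were measured in both, Trbc1 was the 1 gene whose cycling-over-low log2 ratio was at least 0.5 away from 0 on one side in Lat-KO DN3 γδint and on the other side in WT DN3b γδ+. It was 0.65 (0.62 to 0.68) in Lat-KO DN3 γδint, at 1265 CPM in cycling and 808 CPM in low barcodes, and -0.50 (-0.53 to -0.48) in WT DN3b γδ+, at 1802 and 2551 CPM. With 1 library on each side the difference was not tested. Reads of Trbc1 and Trbc2 may be split between these near-identical genes. In the depth window of 6000 to 12000 UMIs the ratio in Lat-KO DN3 γδint was 0.23, and the part of depth in the difference was not tested.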

How the results depend on the processing

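For 13 list medians and 43 genes, 667 of 672 log2 values under the alternatives kept the sign of the main value, and the 5 others were 3 of the γδ TCR median and 1 each of Cd8b1 and Uhrf1. Outside these, Slc3a2 and the γδ TCR sum changed sign with TMM scaling, and Cd3g, Zap70, Tcf7 and Gata3, among others, with 6000 to 12000 UMIs. Levels between libraries were also set without ribosomal protein UMIs, chosen after seeing the data. The cycling share was 17.2% with 8 or more UMIs, 35.9% with 2 or more, 17.5% with barcodes thinned to 4000 UMIs and 24.4% among barcodes with 6000 to 12000 UMIs. It stood at 22.3% when the B gene limit gave way to leaving out barcodes with more B than T cell marker UMIs, an alternative chosen after seeing the data. Genes at least 2-fold lower numbered 171 with 2 or more UMIs, 106 with 6000 to 12000 UMIs, 239 with TMM scaling, 819 with a limit of 5 CPM and 2768 with no limit, where the higher genes numbered 2204. The last 2 settings admit more genes. The DN3a-typical median was -0.82 with 2 or more UMIs, -0.50 with 6000 to 12000 UMIs, -0.91 with TMM scaling and -1.02 with the added B gene alternative. The γδ TCR median, which rests on 3 genes and changes with which of them pass 20 CPM, was -0.36 with 2 or more UMIs, 0.38 after thinning, 0.63 with 6000 to 12000 UMIs, -0.47 as a mean over barcodes, -0.55 without the 8% highest doublet scores and 0.33 with TMM scaling, so its sign is not settled. The nutrient uptake median was 0.46 with TMM scaling. The cause of the other changes was not tested. Many genes under 20 CPM rest on few UMIs, and that limit sets which genes enter a list median. No paired analysis was possible because the labels carry no replicate numbers and each group is 1 library.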
